A study of Mus musculus with 55 samples.

Results

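The genes examined here make, conjugate and move bile acids in the liver, or regulate these steps. They were chosen by symbol, and are the synthesis enzymes Cyp7a1, Cyp8b1, Cyp27a1 and Cyp7b1, the conjugating enzymes Slc27a5 and Baat, the transporters Slc10a1 and Abcb11, and the nuclear receptors Nr1h4 and Nr0b2. All 10 were found among the 37620 genes in the files, and all were among the 11284 genes with a maximum of at least 2 FPKM, a fragment count scaled to transcript length and sequencing depth. Livers of 55 male Collaborative Cross (CC) mice were measured by RNA-Seq. The CC lines are recombinant inbred mouse lines bred from a common set of founder strains, so line mates are close to genetically identical while lines differ across the genome. The mice belonged to 29 lines, with 1 mouse in 8 lines, 2 mice in 16 lines and 3 mice in 5 lines, and the line identifiers of the labels (such as IL-4457) name the groups. They carried no engineered allele and received no treatment, ate chow freely, and were 8.0 to 11.9 weeks old with body weights of 12.8 to 38.0 g. The labels give neither the time of day nor the feeding state at dissection.

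Bile acids are made from cholesterol in hepatocytes. Cyp7a1 starts the classic pathway, whose product Cyp8b1 turns toward cholic acid, and Cyp27a1 and Cyp7b1 form the alternative pathway. Slc27a5 activates bile acids with coenzyme A and Baat joins them to taurine or glycine. Slc10a1 takes bile acids up from portal blood and Abcb11 pumps them into the bile canaliculus. Nr1h4 (the farnesoid X receptor, FXR) senses bile acids and induces Nr0b2 (the small heterodimer partner, SHP), a repressor of Cyp7a1 and Cyp8b1, and FXR also induces Abcb11.

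Upstream sequences of the repressor and the exporter are shown because both genes are induced by FXR in that feedback loop. Each is the 250 bases before the annotated start of the most abundant isoform, 5′ to 3′ on the strand of the gene, in the NCBIM37 reference genome. They are reference letters and not alleles of the lines. Capitals mark AGGTCA, a nuclear receptor half-site, TCAAGG, the core of sites bound by the nuclear receptor Nr5a2, or CACGTG, the E-box, on either strand. The windows lie at chr4:133109041-133109290 (plus strand) for Nr0b2 and chr2:69180672-69180921 (minus strand) for Abcb11.
Nr0b2: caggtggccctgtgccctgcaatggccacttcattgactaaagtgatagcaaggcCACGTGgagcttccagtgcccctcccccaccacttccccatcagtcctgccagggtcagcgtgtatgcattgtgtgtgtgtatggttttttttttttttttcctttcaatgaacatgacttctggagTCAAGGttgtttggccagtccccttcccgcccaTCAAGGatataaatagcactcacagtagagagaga
Abcb11: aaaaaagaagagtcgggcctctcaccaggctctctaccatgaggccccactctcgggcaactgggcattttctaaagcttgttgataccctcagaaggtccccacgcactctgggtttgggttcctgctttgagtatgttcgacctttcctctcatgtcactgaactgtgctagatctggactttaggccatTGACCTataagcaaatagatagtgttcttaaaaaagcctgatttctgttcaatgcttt
The Nr0b2 window held TCAAGG at -68 and again at -35 relative to the start, beside a CACGTG at -195. The Abcb11 window held AGGTCA on the opposite strand from -58 to -53. Across the windows of 11239 expressed genes, AGGTCA was present in 11.8%, TCAAGG in 10.5% and CACGTG in 8.11%. The D-box TTANGTAA, which the clock output factors Dbp, Tef and Hlf bind, was present in 1.62% of windows, and the FXR-type inverted repeat GTCANTGAC in 0.214%. Neither was found as exact letters in the window of any of the 10 genes, where AGGTCA was found for 3, TCAAGG for 2 and CACGTG for 1. The search missed repeats with a changed letter. At its marked site the Abcb11 window reads gccatTGAC, which departs from GTCANTGAC only in its second letter. Such matches describe letters only.

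The mice carried 20542671 to 33953036 summed expected counts, with a median of 27700357, and the 20 most abundant genes held 25.0% to 39.6% of them. Fragments behind single values ranged from 39 for Nr0b2 in a mouse of line IL-4457 to 39069 for Slc27a5. Hepatocyte identity was plain in every liver, since the 6 hepatocyte markers summed to between 17810 and 69560 FPKM. In the same units, pericentral markers summed to 1354 to 7747, periportal markers to 873.5 to 2675, cholangiocyte markers to 6.51 to 208.4, and Kupffer cell markers to 9.55 to 264.0. Endothelial markers summed to 12.98 to 70.97, stellate cell markers to 11.64 to 128.7 and red cell markers to 198.2 to 2756, and of all markers Cftr alone was listed at 0 in some mice. Of the 47 mice with a line mate, 44 were most correlated with a mate over the variable genes. The 3 others carried the labels IL-1052, both mice, and IL-2750, 1 of 3 mice, and the best correlation of an IL-1052 mouse with its mate was 0.0205. The labels of these lines may therefore be mixed, and the main counts of called genes and within-line pairs below are also given without both lines.

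The classic pathway enzymes varied widely. Cyp7a1 (ENSMUSG00000028240, chr4:6192759-6202780, minus strand, NCBIM37) ranged from 2.46 to 137 FPKM over the mice, with a median of 22.2. The lowest line was IL-4457, whose mice had 3.48 and 2.46 FPKM, and the highest was IL-785, whose mice had 24.2, 121 and 137 FPKM. The 2 lines, picked as the extremes, did not overlap, and their means of 2.97 ± 0.721 (SD, n = 2) and 94.1 ± 61.1 (SD, n = 3) differed 31.7-fold. The wide SD of IL-785 shows that line mates could themselves be far apart. In line IL-3438 they had 7.16 and 67.7 FPKM, a 9.45-fold gap that was the widest between mates for Cyp7a1, and in 11 of 21 lines with mates the highest mouse exceeded the lowest by over 2-fold. Because these are bulk livers, fewer cells of a type and less RNA per cell cannot be told apart for any of these genes. Cyp8b1 (ENSMUSG00000050445, chr9:121823474-121825423, minus strand) ran from 27.3 to 269 FPKM with a median of 139. Its lowest line was IL-1452, with 1 mouse at 27.3 FPKM, well below the next line, IL-4457, at 68.5 ± 3.74 (SD, n = 2), and its highest line was IL-4032, with 1 mouse at 235 FPKM.

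The alternative pathway enzymes behaved differently from each other. Cyp27a1 (ENSMUSG00000026170, chr1:74760148-74784464, plus strand), which oxidises the sterol side chain, stayed within 110 to 252 FPKM, with a median of 183. Its lowest line was IL-1061 at 122 ± 3.90 (SD, n = 2) and its highest was IL-2146 at 231 ± 20.5 (SD, n = 2), a 1.90-fold difference. Cyp7b1 (ENSMUSG00000039519, chr3:17971950-18143338, minus strand), the oxysterol 7α-hydroxylase, ranged from 16.5 to 577 FPKM with a median of 184. Low values were shared by line mates in IL-521, with 25.6 and 30.8 FPKM, and in IL-219, with 26.4 and 45.7 FPKM, next to the single IL-1452 mouse at 16.5 FPKM. The highest line, IL-4052, had mice at 577 and 419 FPKM. Only those 3 low lines lay below 50 FPKM by mean, and the gap from IL-219 to the next line exceeded the SD among line mates. Mates also parted in some lines, with 75.6 and 554 FPKM in IL-2680, a 7.33-fold gap.

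Because FPKM is per length, the 7α-hydroxylases of the classic and the alternative branch can be set side by side. The log2 ratio of Cyp7a1 to Cyp7b1 was below 0 in 28 of 29 line means. It was lowest in IL-4457 at -7.06 ± 0.327 (SD, n = 2), and it exceeded 0 only in IL-1452, at 0.93 in its single mouse. The intraclass correlation of this ratio, the share of its variance that lay between lines, was 0.489.

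The conjugating enzymes were abundant, and Slc27a5 varied more among lines than Baat. Slc27a5 (ENSMUSG00000030382, chr7:13573695-13583541, minus strand) ranged from 208 to 613 FPKM with a median of 292. Lines IL-2146, with 613 and 487 FPKM, and IL-2126, with 1 mouse at 531 FPKM, stood at the top, and IL-1452, with 1 mouse at 211 FPKM, at the bottom. The FPKM of the IL-2126 mouse includes a processed transcript that took 29.3% of the gene's transcripts, beside 67.1% for the main isoform. That transcript took a median of 0.0% over the mice, but its SD was 8.02 percentage points among line means and 7.08 among mates. In IL-1513 the mice had 498 and 364 FPKM from 26375 and 22804 fragments. The Slc27a5 FPKM of other mice, and their deviations from line mates, thus also rest on the isoform estimate. Baat (ENSMUSG00000039653, chr4:49502294-49519429, minus strand) ranged from 75.4 to 162 FPKM with a median of 123, from line IL-4457 at 91.3 ± 5.23 (SD, n = 2) to line IL-3348 at 158 ± 5.76 (SD, n = 2). The mice of these 2 lines, picked as the extremes for Baat, did not overlap, which describes them and is no test. The highest line mean exceeded the lowest 2.60-fold for Slc27a5 and 1.73-fold for Baat, beside a median of 2.53-fold over genes with enough distinct levels.

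Of the transporters, Abcb11 varied more among lines than Slc10a1, with line means spanning 2.74-fold and 1.68-fold. Slc10a1 (ENSMUSG00000021135, chr12:82054172-82068971, minus strand) ranged from 234 to 441 FPKM with a median of 322, from IL-3912 at 263 ± 40.5 (SD, n = 2) to the single IL-2693 mouse at 441 FPKM. Abcb11 (ENSMUSG00000027048, chr2:69076339-69180671, minus strand) ranged from 61.2 to 186 FPKM with a median of 120. By FPKM, line IL-4457 was lowest with 61.2 and 69.0, IL-3348 followed with 70.3 and 73.0, and IL-3575 was highest with 186 and 171. The single IL-2126 mouse, at 79.0 FPKM, had the fewest fragments before scaling to depth, 5064, against 8747 and 10098 in IL-4457. Its FPKM includes a processed transcript that took 40.8% of the gene's transcripts, so its place in this order rests on the isoform estimate. Over all mice this transcript took a median of 0.0%, with an SD of 8.35 percentage points among line means and 5.23 among mates. For Abcb11 these low lines and the high line, picked by their means, were separated in every mouse.

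The nuclear receptors formed the strongest contrast. Nr0b2 (ENSMUSG00000037583, chr4:133109291-133112451, plus strand) ranged from 1.24 to 54.0 FPKM with a median of 20.3. Line IL-4457 had 1.24 and 1.42 FPKM and line IL-1513 had 3.97 and 3.29 FPKM, from 39 to 132 fragments, whereas every other mouse had at least 8.36 FPKM. Both lines lay below the next line by more than the SD among line mates, and IL-4457 lay below IL-1513 by more than that SD too. The highest line, IL-2680, had 33.1 and 54.0 FPKM, and its mean exceeded that of IL-4457 32.7-fold. Nr1h4 (ENSMUSG00000047638, chr10:88916979-88996330, minus strand) ranged only from 24.4 to 60.5 FPKM with a median of 40.0. Its lowest line was IL-1513, at 27.4 ± 4.21 (SD, n = 2), and its highest was IL-3438, at 51.3 ± 13.01 (SD, n = 2). The 2 lines with little Nr0b2 differed in Cyp7a1, which was lowest of all lines in IL-4457 and ranked 27 of 29 from the lowest in IL-1513, with 71.4 and 50.8 FPKM. In IL-1513 the hepatocyte markers summed to 33000 FPKM, rank 2 of 29 from the lowest, and the pericentral markers to 6860 FPKM, rank 28, and their part in these levels was not tested.

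**Figure D1:**
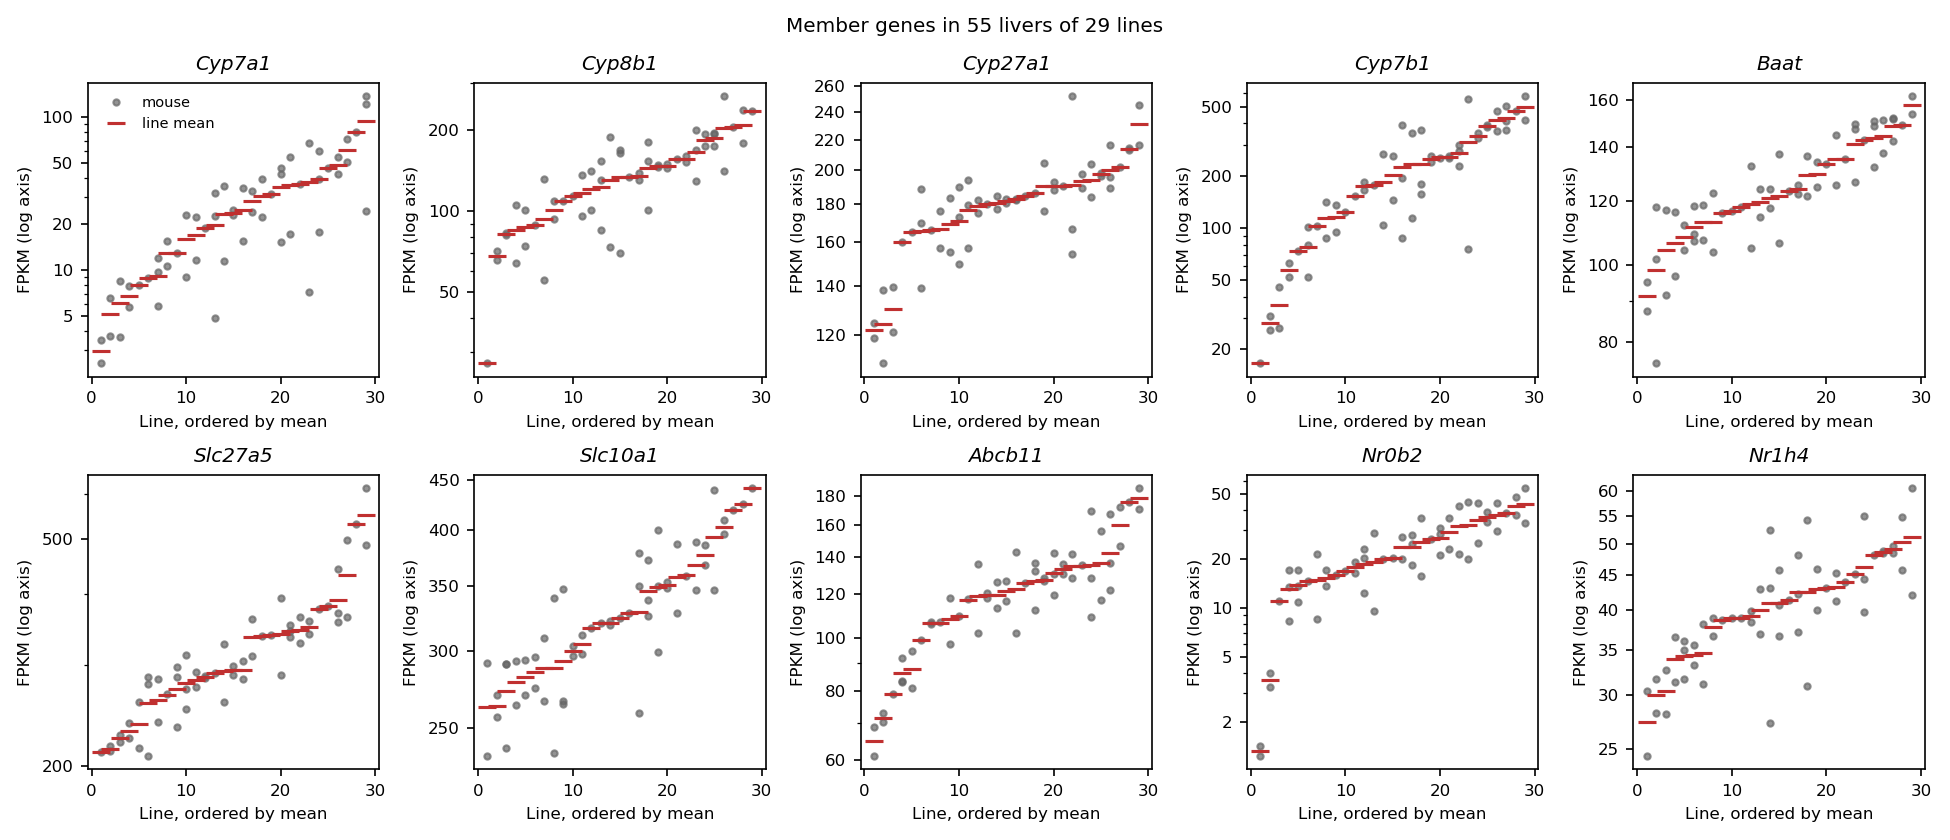
FPKM (log axis) of the 10 genes in 55 mice, with lines ordered by their mean within each panel. Grey points are mice and red dashes are line means. Nr0b2 has 2 lines far below the rest, Cyp7b1 has 3 lines below 50 FPKM, and Cyp7a1 has line mates far apart.

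The order of the lines was gradual for 5 of the genes. Of 28 steps between neighbouring lines in the order of log2(FPKM + 1), none exceeded the SD among line mates for Cyp7a1, Baat, Slc10a1, Abcb11 or Nr1h4, so that neighbours in those orders did not differ beyond their spread. One step did for Cyp8b1, from IL-1452 to IL-4457, and 1 for Cyp27a1, from IL-4457 to IL-1452. For Cyp7b1 there were 2, above IL-1452 and above IL-219, for Slc27a5 2, above IL-1061 and above IL-1513, and for Nr0b2 2, above IL-4457 and above IL-1513. The upper Slc27a5 step led to the single IL-2126 mouse, whose FPKM includes the processed transcript.

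Differences among lines were tested on the expected counts of the 47 mice with a mate, with edgeR's quasi-likelihood F test and Benjamini-Hochberg adjustment over 15285 genes. All 10 genes differed, with adjusted p from 1.22e-05 for Nr0b2 to 0.00734 for Cyp8b1. Abcb11 (adjusted p = 1.44e-05), Slc27a5 (1.71e-05) and Baat (2.05e-05) followed Nr0b2, and Slc10a1 (0.00364) was closest to Cyp8b1. The same test called 88.5% of all genes, so differing among these lines was common in the liver and does not set the bile acid genes apart. It called all 16 genes tested of a list of core clock genes and their output factors. The median intraclass correlation of the 12 of them with enough distinct levels was 0.722, beside 0.592 over 5949 genes. The labels give no time of day, so its part in the line differences was not tested. All 10 bile acid genes were also called without IL-1052 and IL-2750. These p-values set differences among lines against the spread of mates. No label says whether mates came from separate litters or cages, so an effect of a shared litter or cage would count as a line difference.

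The part of the variance that lay between lines ranged widely over the genes. The intraclass correlation of normal scores was 0.728 for Slc27a5, 0.665 for Abcb11, 0.642 for Baat and 0.639 for Cyp7b1. It was 0.564 for Nr0b2, 0.496 for Cyp7a1, 0.486 for Slc10a1, 0.434 for Cyp8b1, 0.433 for Cyp27a1 and 0.309 for Nr1h4. Their median was 0.53, beside a median of 0.592 and quartiles of 0.486 and 0.693 over 5949 genes with enough distinct levels, and Nr1h4 stood at percentile 4.77 of them. Without IL-1052 and IL-2750 the median was 0.617 and the value for Nr1h4 was 0.433, and with log2 CPM (counts scaled to library size) after TMM scaling the value for Nr1h4 was 0.518. No value over all genes stands beside these, so they cannot be set against the 0.592. The SD of line means was largest for Cyp7b1 (1.21 on the log2 scale) and Cyp7a1 (1.11), and the SD among mates was 0.66 and 0.90. For the median of the 10 genes, these SDs were 0.342 and 0.204, beside 0.296 and 0.188 for the median of the 5949 genes. Cyp7a1 thus varied much among lines and almost as much within them, while Slc27a5 varied little within lines (0.17). Mates never differed over 2-fold in Cyp27a1, Baat, Slc27a5, Slc10a1, Abcb11 or Nr1h4 in any of 21 lines, but did in 3 lines for Cyp8b1, 5 for Cyp7b1 and 5 for Nr0b2.

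**Figure D2:**
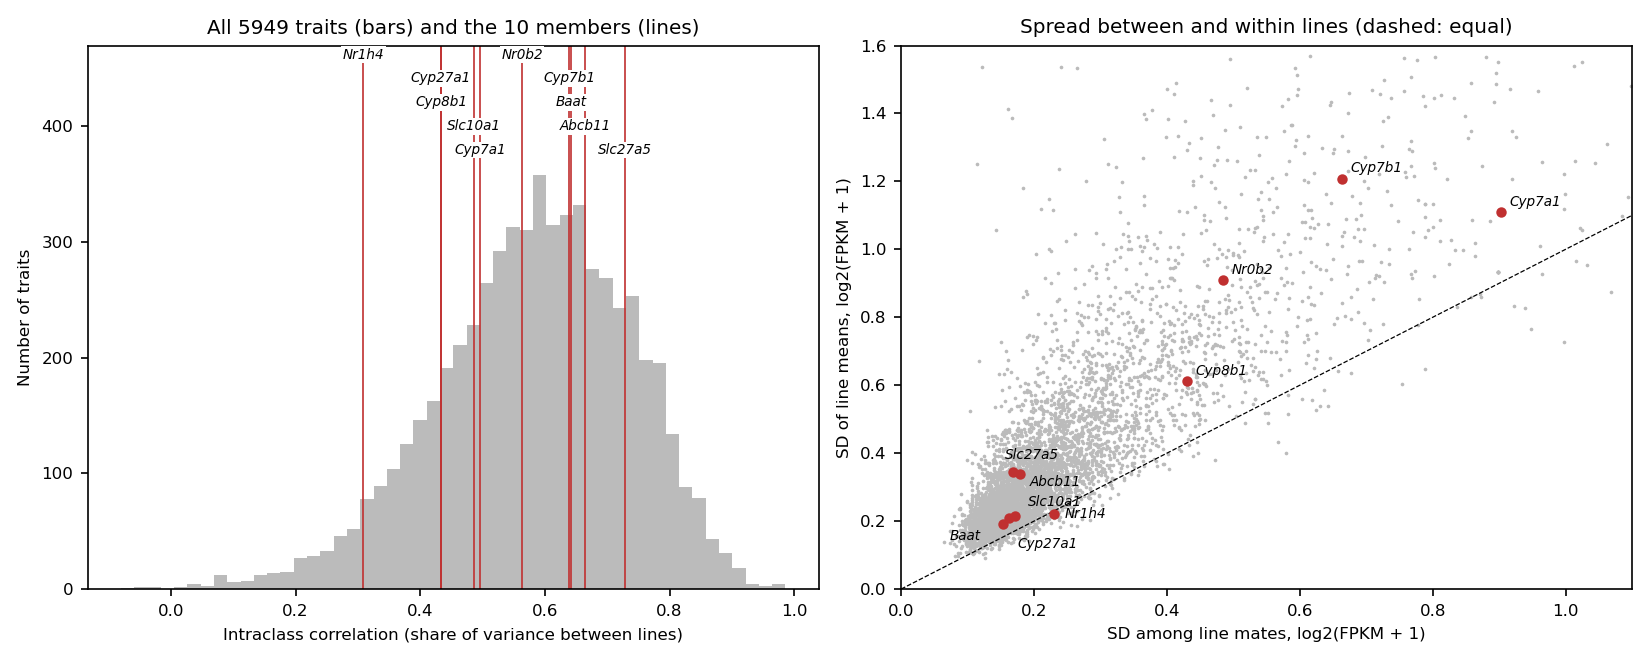
Left, histogram of the intraclass correlation (share of variance between lines, no unit) over 5949 genes, with red lines at the 10 bile acid genes, from 0.309 (Nr1h4) to 0.728 (Slc27a5). Right, SD of line means against SD among line mates, both on the log2(FPKM + 1) scale, with the genes inside the axis limits in grey and the 10 genes in red. Cyp7b1, Cyp7a1, Nr0b2 and Cyp8b1 lie away from the dense cloud, and Nr1h4 lies near the dashed line of equal spread.

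By mean FPKM, line IL-4457 was the lowest of the 29 lines for 4 of the 10 genes, namely Cyp7a1, Baat, Abcb11 and Nr0b2. It was also lowest for 9 of 44 other bile acid genes with a maximum of at least 2 FPKM, namely Amacr, Hsd17b4, Abcc2, Klb, Rxra, Nr1i2, Ppara, Prox1 and Mafg. Over all 11284 such genes it was lowest for 9.36%. It was not low throughout, since its Cyp7b1 was 394 and 384 FPKM, above the median of 184. In this line the pericentral markers summed to 2370 FPKM, the second lowest of 29 lines, and the hepatocyte markers to 56000 FPKM, rank 23 from the lowest. The endothelial markers summed to 54.6 FPKM there, rank 28, the cholangiocyte markers to 122 FPKM, rank 27, and the red cell markers to 1290 FPKM, rank 26. Their part in the result was not tested. Line IL-1452, with a single mouse, was lowest for Cyp8b1, Cyp7b1 and Slc27a5, for 1 of the 44 other bile acid genes and for 5.5% of the 11284 genes. Its red cell markers summed to 2760 FPKM, the highest of the 29 lines, and their part was not tested.

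Splicing was described from the percentage of a gene's transcripts that each annotated isoform took. Cyp8b1, Cyp27a1, Cyp7b1, Slc10a1 and Nr0b2 had a single annotated isoform. The main isoform of Cyp7a1 took at least 92.9% and that of Baat at least 82.1% in every mouse. For Nr1h4, isoform ENSMUST00000058126 took 57.3% ± 3.41 and ENSMUST00000105297 took 38.4% ± 4.79 (SD of 29 line means). Their intraclass correlations were -0.0711 and 0.499, beside a median of 0.253 over 6650 isoform percentages, so the lines differed in the second more than in the first. The second was lowest in line IL-4457 (29.1%) and highest in the single mouse of IL-557 (46.4%). For Slc27a5 and Abcb11, the IL-2126 mouse had the smallest main isoform shares, 67.1% and 57.0%, and there a processed transcript of each took 29.3% and 40.8%. Over all mice the medians of these main isoforms were 90.01% and 99.1%.

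The next question was whether the genes rise and fall together, first from line to line. Across the 29 line means of log2(FPKM + 1), Pearson's r was positive in 33 of 45 pairs, with a median of 0.109 and extremes of -0.429 and 0.436. No pair was called by limma with Benjamini-Hochberg adjustment over all genes, where a call needed an adjusted p below 0.05 in both directions. At an unadjusted limma p below 0.05 there were 6 pairs, at a permutation p below 0.05 there were 6 by r and 2 by Spearman's rho, and 45 pairs were tested. The share of all genes called with each gene across line means was 0.115% for Cyp7a1, 0.0% for Cyp8b1, 0.0886% for Cyp27a1, 0.0% for Cyp7b1 and 0.00886% for Baat. It was 1.61% for Slc27a5, 0.0% for Slc10a1, 0.0266% for Abcb11, 1.59% for Nr0b2 and 0.0% for Nr1h4. These too moved with the unit, from 10 genes to 803 for Cyp27a1 and from 182 to 652 for Slc27a5 with TPM, and from 3 to 393 for Abcb11 after TMM scaling. The counts were 127 for Slc27a5, 79 for Nr0b2 and at most 8 for each of the others without IL-1052 and IL-2750.

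The highest pairs across lines joined Cyp27a1 to other steps. Cyp27a1 and Slc10a1 had r = 0.436 (permutation p = 0.0175) and rho = 0.356 (permutation p = 0.0578), with limma's adjusted p = 0.628. Cyp27a1 and Slc27a5 had r = 0.43 (permutation p = 0.0196) and rho = 0.491 (permutation p = 0.00735), with adjusted p = 0.281, and r stayed between 0.325 and 0.542 when the 2 lines farthest from the median of either gene were left out. Beside them, the summed pericentral markers had r = 0.667 with Cyp27a1, 0.49 with Slc10a1 and 0.273 with Slc27a5 across lines, and the part of zonation was not tested. The export pump and the oxysterol hydroxylase went in opposite directions, with r = -0.429 for Cyp7b1 and Abcb11 (permutation p = 0.0207, rho = -0.392, permutation p = 0.0363, adjusted p = 0.792). Cyp7a1 and Cyp27a1 had r = 0.407 (permutation p = 0.0275), which fell to 0.115 without the 2 lines farthest in Cyp7a1, so it rested on those lines. Cyp8b1 and Cyp7b1 had r = 0.401 (permutation p = 0.0325), which was 0.0292 without the 2 lines farthest in Cyp7b1. Baat and Nr0b2 had r = 0.414 (permutation p = 0.0246), which was 0.0986 and 0.176 without the 2 lines farthest in either. Nr0b2 with Cyp7a1, the repressor with its target, had r near 0 across lines, at 0.09. It was -0.224 without the 2 lines farthest in Cyp7a1 and -0.126 without the 2 farthest in Nr0b2. None of the 45 pairs was called without IL-1052 and IL-2750.

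Within lines the genes were compared as deviations from the line mean in the 47 mice with a mate, with mice permuted within their lines. Here r was positive in 31 of 45 pairs, with a median of 0.167 and extremes of -0.633 and 0.585. Again no pair was called by limma with line as a factor, while 15 pairs had an unadjusted limma p below 0.05 and 14 had a permutation p below 0.05, by r and again by rho. Of those 14 by r, 11 were positive. The share of all genes called within lines was 0.142% for Cyp7a1, 0.0% for Cyp8b1, 0.124% for Cyp27a1, 2.9% for Cyp7b1 and 1.43% for Baat. It was 0.062% for Slc27a5, 1.18% for Slc10a1, 0.133% for Abcb11, 0.0% for Nr0b2 and 8.48% for Nr1h4. When IL-1052 and IL-2750 were left out, the numbers of genes fell from 957 to 51 for Nr1h4, from 327 to 191 for Cyp7b1, from 161 to 111 for Baat, from 133 to 4 for Slc10a1, from 15 to 0 for Abcb11, from 14 to 0 for Cyp27a1 and from 7 to 0 for Slc27a5, and rose from 16 to 39 for Cyp7a1. They also moved with the unit. With TPM they were 2837 for Slc27a5 and 1672 for Cyp27a1, and after TMM scaling 880 for Abcb11.

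**Figure D3:**
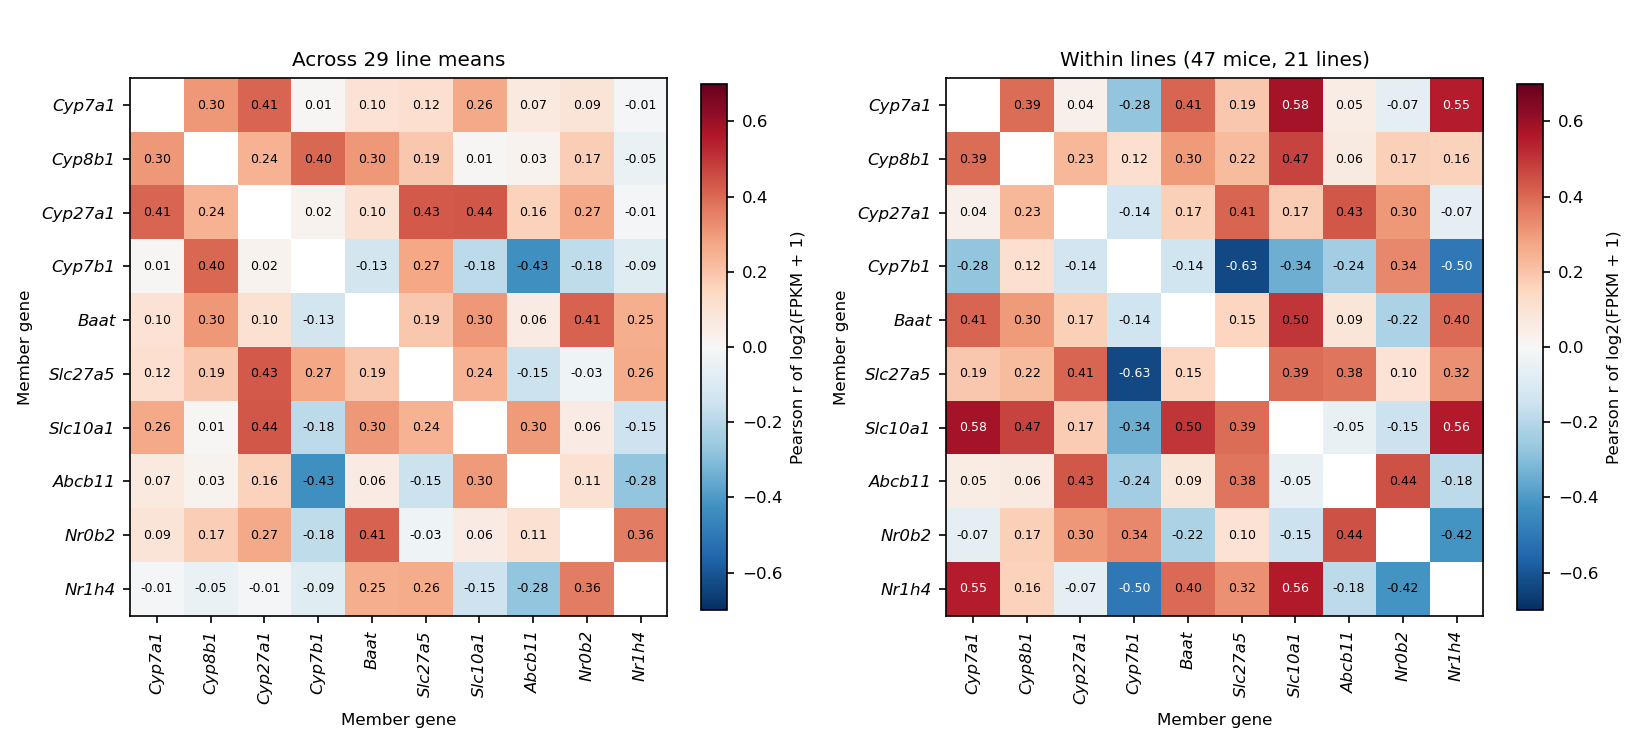
Pearson's r of log2(FPKM + 1) for the 45 pairs of genes, across 29 line means (left) and within lines for 47 mice (right). Red is positive and blue is negative. The right panel reaches 0.58 for Cyp7a1 with Slc10a1 and -0.63 for Cyp7b1 with Slc27a5, against 0.44 and -0.43 at most in the left panel.

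Among mates, a mouse with more Cyp7a1 tended to have more Slc10a1, with r = 0.585 (permutation p = 0.00063) and rho = 0.596 (permutation p = 0.00079). The r was 0.613 without IL-1052 and IL-2750, but the adjusted p was 0.175. Without the 2 mice farthest from the median of either gene r was 0.575 and 0.526. That check kept the line means of all mice, and in lines of 2 mice the deviations are equal and opposite. It therefore does not remove the whole weight of an extreme line. Slc10a1 also had r = 0.555 with Nr1h4 (permutation p = 0.0125, adjusted p = 0.0818), 0.499 with Baat (permutation p = 0.00981, adjusted p = 0.138) and 0.471 with Cyp8b1 (permutation p = 0.0141, adjusted p = 0.687). These were 0.512, 0.481 and 0.492 without IL-1052 and IL-2750. Without the 2 mice farthest in either gene they were 0.46 and 0.456 with Nr1h4, 0.458 and 0.485 with Baat, and 0.532 and 0.391 with Cyp8b1. Cyp7a1 and Nr1h4 had r = 0.547 (permutation p = 0.0197) and 0.658 without both lines, with adjusted p = 0.194 and 0.0555. This r was 0.415 without the 2 mice farthest in Cyp7a1 and 0.447 without the 2 farthest in Nr1h4. Mouse 1 of IL-785 lay at -1.58 and -0.52 (log2) from its line mean in these 2 genes. So the bile acid uptake transporter had positive r with the sensor, a conjugating enzyme and the classic pathway enzymes among mates, none of them past the adjusted threshold.

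Cyp7b1 had negative r with Slc27a5 and Nr1h4. Its r with Slc27a5 was -0.633 (permutation p = 0.00177, rho = -0.571, permutation p = 0.00415), and the adjusted p of 0.0509 was the lowest of all pairs. Without IL-1052 and IL-2750 this r was -0.600, with adjusted p = 0.133. With log2 CPM after TMM scaling, which does not use isoform lengths, it was -0.381. Across line means of log2(FPKM + 1) the same pair had r = 0.272, and its difference from -0.633 was not tested. Cyp7b1 and Nr1h4 had r = -0.501 (permutation p = 0.0136, adjusted p = 0.0952), and -0.466 without both lines. With Cyp7a1, Baat and Cyp8b1 the r of Cyp7b1 was -0.275, -0.138 and 0.116, none with a permutation p below 0.05. Nr0b2 and Nr1h4, a target and its inducer, had r = -0.417 among mates (permutation p = 0.0287, adjusted p = 0.379) and -0.289 without both lines. Across lines it was 0.359, which was 0.027 without the 2 lines farthest in Nr0b2 and 0.163 without the 2 farthest in Nr1h4. Nr0b2 and Abcb11, which are both induced by FXR, had r = 0.443 among mates (permutation p = 0.0127, adjusted p = 0.369), and 0.295 without both lines. Abcb11 and Nr1h4 had r = -0.184 among mates. The stellate cell markers had within-line r = -0.696 with Abcb11 and -0.494 with Nr0b2, and the cholangiocyte markers 0.571 and 0.329. Their part was not tested. Nr0b2 and Cyp7a1 had r = -0.07 among mates.

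These within-line values moved with the scale of the measurement. The share of fragments held by the 20 most abundant genes had within-line r = 0.624 with Cyp7b1, -0.57 with Slc10a1, -0.54 with Baat, -0.501 with Nr1h4 and -0.486 with Slc27a5, and its part was not tested. With TPM, the other length-normalized unit of the files, 8 pairs were called, and the factor between TPM and FPKM differed among mice from 0.284 to 0.631 on the log2 scale. They were Slc10a1 with Nr1h4 (r = 0.666), Baat (0.643) and Slc27a5 (0.579), Nr1h4 with Baat (0.548) and Slc27a5 (0.496), Cyp27a1 with Slc27a5 (0.58), and Cyp7b1 with Slc27a5 (-0.7) and Nr1h4 (-0.58). With log2 CPM after TMM scaling, whose log2 factors ran from -0.285 to 0.19, no pair was called, and r was -0.381 for Cyp7b1 with Slc27a5, 0.399 for Slc10a1 with Nr1h4 and 0.564 for Cyp7a1 with Slc10a1. Of the within-line pairs named so far, only Cyp7b1 with Baat turned its direction, from r = -0.138 to 0.152 after TMM scaling. The pericentral markers had within-line r = 0.63 with Slc27a5, -0.562 with Cyp7b1, 0.483 with Nr1h4 and 0.427 with Slc10a1.

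**Figure D4:**
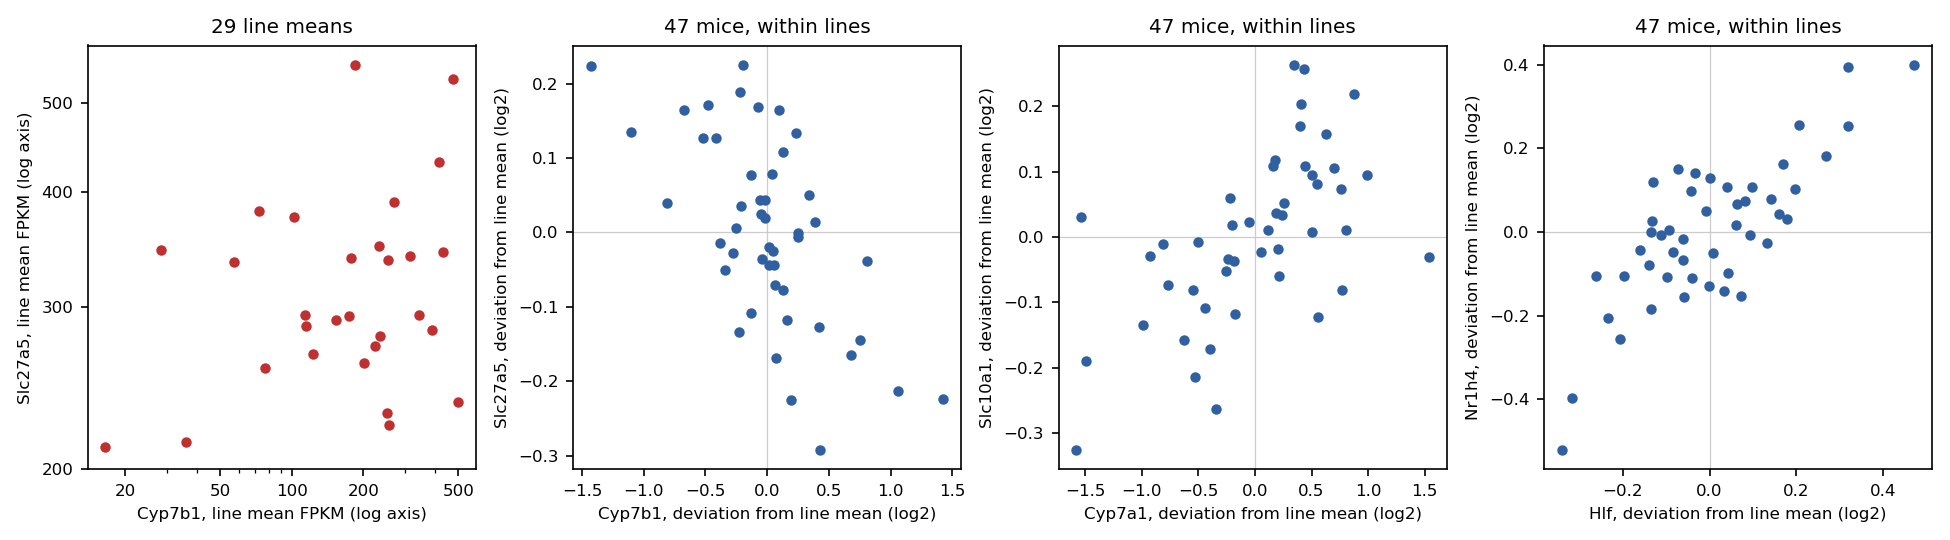
From left, line mean FPKM of Slc27a5 against Cyp7b1 (log axes, 29 lines), then deviations of single mice from their line mean (log2, 47 mice) for Slc27a5 against Cyp7b1, Slc10a1 against Cyp7a1 and Nr1h4 against Hlf. The first cloud has r = 0.272 (of line means of log2(FPKM + 1)) and the next 3 have r = -0.633, 0.585 and 0.781.

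On the FPKM scale with all lines, Nr1h4 had the highest count of correlated genes among line mates. It was correlated with 957 of 11283 genes, 918 of them positively, the 8.48% given above. The clock list holds core clock genes and their output factors, and 5 of its 14 tested genes passed with Nr1h4, all positively. On this scale none passed with another of the 10 genes. With TPM 6 passed with Slc10a1, beside 29.9% of all genes, and 3 with Baat, beside 28.6%. Also with TPM 2 passed with Cyp7b1 (negatively), beside 19.2%, and 1 with Slc27a5, beside 25.1%. With Abcb11, 1 passed positively and 1 negatively without IL-785 (beside 1.72% of all genes), and again after TMM scaling (beside 7.8%). Hlf, a clock output factor that binds the D-box, had r = 0.781 with Nr1h4 (adjusted p = 0.00161), and its relative Tef had 0.64 (adjusted p = 0.0127) and Dbp 0.554 (adjusted p = 0.0313). The period and cryptochrome genes Cry2 and Per3 had 0.743 (adjusted p = 0.00421) and 0.612 (adjusted p = 0.0183). Arntl, the activator of the core loop, had r = -0.312 and did not pass. The count leaned on few mice, since Nr1h4 differed between mates most in IL-785 (27.3, 52.6 and 43.2 FPKM) and in IL-1052 (30.9 and 54.3 FPKM). Without IL-1052 and IL-2750, 51 genes (0.452%) and 1 clock gene passed, fewer genes than for Cyp7b1 (191) and Baat (111), and r was 0.733 for Hlf, 0.655 for Cry2 and 0.54 for Tef. Without IL-785, 352 genes (3.12%) and 4 clock genes passed. With TPM 3747 genes (33.2%) and 6 clock genes passed, and after TMM scaling 82 genes (0.727%) and 2 clock genes, with r = 0.741 for Hlf, against 880 genes for Abcb11 and 115 for Cyp7b1. The lean to positive correlations, 918 against 39, was also lost after TMM scaling, at 41 against 41.

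The wider bile acid list of 51 other genes was followed in the same fits, and 44 of them were tested. Within lines Nr1h4 passed with 6, all positive, beside 8.48% of all genes. Among them were the multidrug exporter Abcc2 (r = 0.593), the xenobiotic receptor Nr1i3 (0.585), the fibroblast growth factor coreceptor Klb (0.564), the fatty acid receptor Ppara (0.555) and Hsd11b1 (0.547). Cyp7b1 passed with 5, beside 2.9% of all genes, all negative, among them Klb (-0.655), Acnat2 (-0.618), Nr1i3 (-0.605) and the basolateral exporter Abcc3 (-0.581). Klb and Nr1i3 thus passed with both, in opposite directions. Baat passed with 2, beside 1.43% of all genes, namely Akr1c6 (0.782) and the peroxisomal transporter Abcd3 (0.623), and Slc10a1 with 2, beside 1.18%, namely the sinusoidal transporter Slco1a4 (0.705) and the steroid 5β-reductase Akr1d1 (0.668). Without IL-1052 and IL-2750 the counts were 0 for Nr1h4, 4 for Cyp7b1 (beside 1.69% of all genes), 2 for Baat (beside 0.984%) and 0 for Slc10a1, and after TMM scaling 0, 1 (beside 1.02%), 0 and 0. With TPM they were 22, 14, 15 and 21, beside 33.2%, 19.2%, 28.6% and 29.9% of all genes, and 12 for Slc27a5, beside 25.1%. All the r named here kept their sign under each of these settings. Across line means on the FPKM scale the only pass was Ppara with Nr0b2 (r = 0.589, adjusted p = 0.0457), which no longer passed without IL-1052 and IL-2750 (r = 0.588) or without IL-4457. With TPM, Cyp27a1 passed with 5 across lines, beside 7.12% of all genes. After TMM scaling Abcb11 and Nr0b2 each passed with 2 positively and 1 negatively, beside 3.48% and 2.75%. Leaving out IL-4457 took the 179 genes that passed with Nr0b2 across lines to 0, and leaving out IL-1052 and IL-2750 took them to 79.

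By level, 46 of the 51 listed genes could be tested among lines and 43 differed (edgeR), beside the 88.5% of all genes. The 3 that did not pass were the sterol carrier Scp2 (adjusted p = 0.06095), the very long chain acyl-CoA synthetase Slc27a2 (0.1321) and Cyp2c70 (0.057), the mouse enzyme that makes muricholic acids. All 14 tested transporters and all 16 tested regulators differed, as did 13 of 16 synthesis genes. The highest intraclass correlations were 0.825 for Akr1c6 and 0.792 for Slco1a4, and the lowest were 0.164 for Cyp2c70 and 0.262 for Rora, with a median of 0.56 over 40 genes. Akr1c6 ran from 347 FPKM in line IL-1061 to 1430 in the single mouse of IL-557, and Slco1a4 from 1.86 in IL-72 to 33.8 in the single mouse of IL-4141. The ileal genes Fabp6 and Fgf15 were at or near 0, with 0.0 and at most 0.02 FPKM. Slc10a2, the apical uptake transporter also found in cholangiocytes, had a median of 8.31 FPKM but reached 118.6 in the single IL-2126 mouse.

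Genes most like each of the 10 were ranked by r of log2(FPKM + 1) over the 11284 genes, as a description. Across 29 line means, Cyp7a1 was nearest to the transcription factor Klf15 (r = 0.741), and E130311K13Rik was near Cyp8b1 (0.675). Cyp27a1 was nearest to 2510039O18Rik (0.768), and Cyp7b1 to Serpina9 (0.595) and Slc50a1 (0.59). Slc27a5 was nearest to the succinate dehydrogenase subunit Sdhc (0.809) and to Hint2 (0.79), and Baat to Bik (0.729) and the isocitrate dehydrogenase Idh1 (0.728). The likeness was thus highest for Slc27a5 and Nr0b2, and lowest for Cyp7b1. Slc10a1 was nearest to Pik3cb (0.703) and Mxi1 (0.664), Abcb11 to Hjurp (0.715) and Mcc (0.702), Nr0b2 to the adaptor Grb7 (0.807) and to Zfp212 (0.746), and Nr1h4 to Znhit2-ps (0.679) and the scaffold protein Slc9a3r1 (0.651). None of the 10 genes was among the 2 nearest of another. On the negative side, picked after their values were seen, Chka (choline kinase) had r = -0.825 with Cyp7a1 across lines, and the acyl-CoA thioesterase Acot3 had r = -0.849 with Cyp7b1 within lines.

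Within lines the nearest genes were others. Cyp8b1 was nearest to Hsd3b7 (r = 0.717), the enzyme that follows the hydroxylases in bile acid synthesis, and to Fbxo21 (0.658). Baat was nearest to the mitochondrial ribosomal protein Mrps35 (0.788) and to Akr1c6 (0.782), and Slc10a1 to the fatty acid oxidation enzyme Echs1 (0.78) and to Abhd14b (0.779). Cyp7a1 was nearest to Snx9 (0.733) and Acy1 (0.71), Cyp27a1 to Acsm1 (0.787) and the gap junction protein Gjb1 (0.754), and Cyp7b1 to Cd4 (0.756) and Ces4a (0.728), both of low level. Slc27a5 was nearest to plasminogen, Plg (0.741), and to Bin3 (0.735), and Abcb11 to Phc2 (0.752) and Arhgef19 (0.732). Nr0b2 was nearest to Tlcd2 (0.72) and to E-cadherin, Cdh1 (0.644), and Nr1h4 to Pbld1 (0.82) and Gm16157 (0.811). Without IL-1052 and IL-2750 these within-line values lay between 0.558 for Cdh1 and 0.823 for Mrps35.

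Body weight and age were tested across the 29 line means by limma, and neither was associated with any of the 10 genes. The adjusted p was at least 0.611, and 0.0% of 11284 genes passed for weight and 0.0% for age. An unadjusted limma p below 0.05 was found for weight in Cyp7a1 alone of the 10, beside 906 of all genes, and for age in none of the 10, beside 659 of all genes. Cyp7a1 had r = -0.363 with weight (permutation p = 0.0513, rho = -0.296, permutation p = 0.118), and r = -0.107 without the 2 lines farthest from the median weight. Line mates shared their age in nearly all lines, so age and line cannot be told apart.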

How the data were processed

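Livers of 55 male CC mice of 29 lines were sequenced by the authors (stranded mRNA libraries, paired-end reads), and fragments were quantified with RSEM 1.2.18 and Bowtie 2 on mm9 with Ensembl annotation. The deposited gene tables hold expected counts, TPM and FPKM, and the deposited isoform tables hold expected counts and, in percent, the share of each isoform. Expected counts share ambiguous fragments among genes and isoforms by estimation, so isoform percentages carry more error than gene totals. Gene names were read from GENCODE vM1 on the same genome build (NCBIM37), which matched 37205 of 37620 gene identifiers. Each mouse was placed in its line by its label, and no label names a batch.

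Differences among lines were tested on expected counts rounded to whole numbers, with edgeR 4.0.16 (TMM, filterByExpr, quasi-likelihood F test) in 47 mice of 21 lines with mates. Correlations used log2(FPKM + 1), as line means or with line as a factor, by limma 3.58.1 on 11284 genes with a maximum FPKM of at least 2. Permutation p used 100000 two-sided permutations, of lines or of mice within lines. The intraclass correlation was the one-way analysis of variance estimate on van der Waerden scores, for genes with at least 12 distinct levels after rounding as in the study's methods. All fits ran over all genes, with Benjamini-Hochberg adjustment, and were tested on simulated data. Line mates differed by more than sampling noise in all 31 pairs, with a chi-square per gene of at least 13.45. The 10 genes and the lists were chosen with earlier results of these data known. Named from the lists were genes with the highest and lowest intraclass correlation and those passing with most of the 10, and for each gene the 2 most correlated genes of each kind and the extreme lines and mice. List genes passing with 1 of the 10, lowest in IL-4457, absent or singled out for 1 mouse were named after their values were seen. Some genes and a sequence that these rules select are not reported here. DESeq2 1.42.0 was run as an alternative test. Leave-one-out edgeR fits kept the dispersion trend of all mice.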

Additional observations from a re-analysis of the deposited data

How the results depend on the processing

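All 10 genes differed among lines under every alternative run: DESeq2's likelihood ratio test, RLE size factors, limma on log2(FPKM + 1), no filter on low counts, at least 10 counts in every mouse, leaving out IL-1052 and IL-2750, and leaving out each mouse. The count of called genes of the bile acid list lay between 40 and 46. The median intraclass correlation of the 10 genes lay between 0.49 and 0.597 without 1 mouse, and was 0.624 after TMM scaling, with no value over all genes beside them. No pair was called across line means under any alternative run, and no gene was called for weight or age. Within lines the count of 0 pairs changed with TPM (8, beside the shares of all genes given above) and van der Waerden scores (1, Slc10a1 with Nr1h4). It also changed with a maximum FPKM of at least 10 (1, Cyp7b1 with Slc27a5) and body weight as a covariate (1, the same pair). Without 1 mouse it ranged from 0 to 1. The call was Cyp7b1 with Slc27a5 without either mouse of IL-4052, IL-521 or IL-1513, without IL-2156 mouse 3 or without IL-2750 mouse 2, and Slc10a1 with Nr1h4 without IL-611 mouse 3. The cause was not tested. Counts of genes correlated with a single gene, with settings chosen after seeing the data, moved further with TPM (2161 for Cyp7b1, 3228 for Baat and 3369 for Slc10a1 within lines, and 74 for Nr0b2 across lines) and with TMM (115, 1, 0 and 310, and 16 for Slc27a5 across lines), beside the moves of Abcb11, Cyp27a1 and Slc27a5 given above. Without IL-785 the within-line counts were 194 for Abcb11, 175 for Cyp27a1, 14 for Slc10a1 and 0 for Cyp7a1. For Cyp7b1 the split of positive against negative was 39 to 288, and 71 to 44 after TMM. For Nr0b2 it was 91 to 88, and 49 to 25 with TPM. No paired analysis was possible because the labels give no replicate numbers shared by the lines. Lines with 1 or 2 mice limit the precision of a line mean.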
